A study of Homo sapiens with 36 samples.

Results

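37 lysosomal genes were followed by polyA RNA-seq in MDA-MB-231, an established human line from a triple-negative breast tumour, given SHP1705, an inhibitor of the proteasome, or the pair of drugs. They were chosen by name, as 15 genes of the proton pump of the lysosome (the V-ATPase) and 22 genes of lysosomal enzymes and membrane proteins, out of 54583 genes listed in each count table. All 37 were found in every table, and all 37 passed the filter on low counts in every table. SHP1705 stabilizes cryptochrome, a repressor protein of the circadian clock, and MG132 and carfilzomib block the proteasome. The 36 libraries form 3 sets of 12. Each set has a DMSO group, SHP1705 at 10 µM, the inhibitor alone and both drugs together (called the combination), with 3 libraries a group. The first set used MG132 at 100 nM for 8 h, the second carfilzomib at 10 nM for 8 h and the third carfilzomib at 10 nM for 24 h. DMSO, the solvent of the drugs, is the control of each set, and all groups are the same cell line in the same serum-containing medium. The labels speak of independent experiments without saying what a replicate is, so each p-value is set against the spread of these libraries alone, and that spread may be technical.

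The lysosome is the acidic compartment in which cells break down proteins, lipids and sugars delivered by endocytosis and autophagy. The V-ATPase acidifies it. Its cytosolic V1 sector hydrolyses ATP, its membrane-bound V0 sector passes protons, and accessory proteins help to assemble and deliver it. Soluble hydrolases such as cathepsins and glycosidases work at that low pH, while membrane proteins such as LAMP1 and NPC1 protect the membrane and export products. Many of these genes carry an E-box, the CLEAR element, that TFEB and related factors bind when lysosomes are stressed or nutrients are short.

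Levels are given as CPM, the counts of a gene scaled to a common library size after TMM normalization. Totals ran from 34200000 to 39300000 counts with MG132, and carfilzomib libraries held 17800000 to 27700000 (8 h) or 18900000 to 34000000 (24 h). The line's mesenchymal marker VIM lay between 691 and 1318 CPM in all libraries, and of 6 luminal and epithelial markers the receptor gene ESR1 was at most 0.444 CPM, while EPCAM reached 26.3 and KRT19 903 CPM. The sum of these 6 was 542 to 551 CPM in the DMSO libraries of the MG132 set and 284 to 309 CPM in its combination. The sum of 6 markers of the line itself was 5361 to 5477 and 4660 to 4874 CPM in the same groups. In the MG132 set the summed level of 10 fibroblast markers was 18.2 to 19.7 CPM in DMSO, 17.9 to 55.4 with SHP1705, 18.0 to 205 with MG132 and 127 to 283 CPM in the combination, most of it POSTN. Of the 8 markers tested there, POSTN, CDH2, COL1A1 and PDGFRA were higher in the combination than in DMSO and 0 were lower. CDH2 lay at 1.55, 1.21 and 0.995 CPM in DMSO and 6.53, 16.7 and 15.7 CPM in the combination, and at 11.7 CPM in MG132 replicate 3. DCN and THY1 stayed at or under 0.171 CPM, and the summed level was at most 25.6 CPM in the other sets. POSTN was also raised in 4 libraries of the MG132 set outside the combination, 2 with SHP1705 and 2 with MG132. In the carfilzomib set at 8 h the liver gene ALB held 85 counts in the library labelled SHP1705 replicate 1. It held 101 in replicate 3 of both drugs, and 0 to 3 in the other libraries of that set. The blood gene HBG1 reached 9.68 CPM in that set and at most 0.0911 CPM in the others. In the carfilzomib set at 8 h the stress and clock check genes go against the labels, as set out with the values of that set, so its groups are named there as labelled and no result of the other sets rests on it.

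The E-box shows in part of these genes as read from RefSeq promoters of GRCh38.p14. A promoter was found for 27 of the 37 genes, and the 250 bases before the start were searched on both strands, against the same window of 27305 genes. The core CACGTG stood in 10 of 27 (37%) against 6.49% of all promoters, and the longer TCACGTGA in 6 of 27 (22.2%) against 0.89%. The full CLEAR element, which adds a G before and a C after the longer form, stood in 3 of 27 (11.1%), ATP6V1G1, GAA and MCOLN1, against 0.33%. A match to a longer form also counts for the shorter ones. The heat shock element units GAANNTTC and TTCNNGAA stood in 0 of 27 each, against 5.85% and 6.72%. The antioxidant core TGACNNNGC stood in 9 of 27 (33.3%) against 11%, and the CCAAT box in 9 of 27 (33.3%) against 33%. The 6 genes with TCACGTGA are printed because they include the V-ATPase gene that rose most with MG132 and SHP1705 and genes that did not move. Each is written in the direction of its gene, with TCACGTGA in capitals (the full element of MCOLN1 runs past the end of its window). They lie at chr9:114587684-114587743 (plus strand), chr13:113297179-113297238 (plus), chr16:67481184-67481243 (minus), chr17:80101478-80101537 (plus), chr19:7522556-7522615 (plus) and chr20:45891275-45891334 (plus), in this order.
ATP6V1G1: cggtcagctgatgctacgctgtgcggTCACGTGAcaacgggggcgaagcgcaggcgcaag
LAMP1: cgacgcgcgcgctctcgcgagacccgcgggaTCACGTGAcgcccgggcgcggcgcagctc
ATP6V0D1: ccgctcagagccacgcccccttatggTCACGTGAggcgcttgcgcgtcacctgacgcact
GAA: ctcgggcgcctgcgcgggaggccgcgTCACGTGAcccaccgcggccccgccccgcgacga
MCOLN1: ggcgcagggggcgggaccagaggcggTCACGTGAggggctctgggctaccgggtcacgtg
CTSA: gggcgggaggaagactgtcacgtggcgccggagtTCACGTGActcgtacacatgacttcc

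GLA encodes alpha-galactosidase A, which removes terminal galactose from glycolipids and is deficient in Fabry disease. It changed most of the 37 genes in the MG132 set and in the carfilzomib set at 24 h, so its upstream 250 bases (chrX:101407926-101408175, minus strand) are shown whole. They hold no E-box and no heat shock unit as spelled above, and 3 CCAAT boxes in the reverse direction, in capitals.
GLA: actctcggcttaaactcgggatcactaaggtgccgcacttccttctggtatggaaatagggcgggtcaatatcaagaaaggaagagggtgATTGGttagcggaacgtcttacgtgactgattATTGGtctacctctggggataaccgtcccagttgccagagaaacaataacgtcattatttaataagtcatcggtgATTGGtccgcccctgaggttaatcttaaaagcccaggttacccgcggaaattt

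Per kilobase of exon, the mean DMSO level of the MG132 set ran from 5.86 CPM per kb for GAA and 6.18 for ATP6V0A1 to 934 for CTSD, the aspartic protease cathepsin D. CTSZ (227), PSAP (177), NEU1 (157) and CD63 (146) followed CTSD on that scale. In the DMSO libraries of the carfilzomib set at 24 h, CTSD again led (960 CPM per kb) before CTSZ (364) and PSAP (234), and ATP6V1A was lowest at 7.93. The pump subunits were unequal, from 6.18 for ATP6V0A1 to 119 for ATP6V0E1 in the MG132 set.

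MG132 together with SHP1705 at 8 h raised most pump genes and a narrower set of enzyme and membrane genes. Against DMSO, 24 of the 37 genes were higher and 1 was lower by edgeR's quasi-likelihood test at an adjusted p under 0.05. Of all 16591 genes tested, 58.8% were called, 29.2% higher and 29.7% lower. Of the 15 V-ATPase genes, 13 were higher and 0 lower, with a median log2 change of 0.32. Of the 22 enzyme and membrane genes, 11 were higher and 1 lower, with a median of 0.11. The median of all genes tested was -0.01. TMM factors were 1.048 to 1.049 in the DMSO libraries and 0.845 to 0.856 in the combination. Each change is thus relative to the other genes, and small ones rest on this scaling. The raw counts of ATP6AP1, for one, were 3282, 3115 and 3161 in DMSO and 2669, 3010 and 3217 in the combination. The difference between pump genes and the other lysosomal genes is a description and was not tested. HSPA1A, an inducible heat shock chaperone, stood at 38927 to 40611 CPM in these combination libraries and at 533 to 926 CPM in the other 9 libraries of the set. The fibroblast marker sum was also highest in the combination, and the sums of luminal and line markers were lowest there. Their part in these changes was not tested. Leaving out the 4 other POSTN-positive libraries could not test that part, since the combination libraries are themselves POSTN-positive and stay in such a fit.

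In the V1 sector, 7 of 8 genes rose. ATP6V1G1, a stalk subunit, lay at 99.8, 103 and 94.8 CPM in DMSO and at 172, 169 and 168 CPM in the combination, with 97.1, 86.7 and 93.0 under SHP1705 and 95.4, 97.5 and 99.6 under MG132. The combination libraries stood apart from all others. The change against DMSO was 0.77 on the log2 scale (SE 0.041, adjusted p = 2.83e-12 by edgeR). ATP6V1A, the catalytic subunit, lay at 49.7, 49.2 and 52.9 CPM in DMSO and at 75.7, 77.3 and 77.4 CPM in the combination, with no overlap. It rose by 0.60 (SE 0.040, adjusted p = 8.93e-11 by edgeR). ATP6V1C1, which links the stalks, rose by 0.68 and ATP6V1E1, a stalk subunit, by 0.52 on the log2 scale. ATP6V1B2 (0.32), ATP6V1D (0.30) and ATP6V1H (0.30) rose less. ATP6V1F did not pass, at -0.04 with DMSO values of 75.1, 76.0 and 75.9 CPM and combination values of 74.1, 79.0 and 67.6 CPM, which overlap.

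In the V0 sector, 4 of 5 genes rose. ATP6V0A1, which anchors V1 to the membrane, changed by 0.43, ATP6V0E1 by 0.40, ATP6V0B by 0.22 and the proteolipid ATP6V0C, part of the proton-carrying ring, by 0.15 on the log2 scale. ATP6V0E1 lay at 195, 194 and 192 CPM in DMSO and at 258, 269 and 241 CPM in the combination, with no overlap. ATP6V0D1 lay at 51.6, 52.4 and 52.4 CPM in DMSO and 48.3, 51.4 and 49.4 CPM in the combination and did not pass, at -0.07 (adjusted p = 0.21 by edgeR). Both accessory genes rose, ATP6AP2 by 0.34 and ATP6AP1 by 0.15.

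Among 6 proteases, CTSL, TPP1 and CTSA rose and 3 did not pass. CTSL, a cysteine endopeptidase, lay at 69.9, 74.1 and 72.6 CPM in DMSO and at 96.0, 93.8 and 92.0 CPM in the combination, and rose by 0.38 (SE 0.036). TPP1, which trims tripeptides from proteins, lay at 59.6, 57.7 and 59.5 CPM in DMSO and 75.9, 74.1 and 77.0 CPM in the combination. CTSD, the most abundant of the list, stayed between 1956 and 2007 CPM in both groups, and CTSB (0.03) and CTSZ (-0.05) did not pass either.

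GLA gave the widest change. It lay at 27.0, 25.2 and 23.6 CPM in DMSO, at 24.3, 23.9 and 23.6 CPM with SHP1705, at 24.9, 25.5 and 24.9 CPM with MG132 and at 97.8, 95.8 and 92.3 CPM in the combination. The combination libraries lay far from all others, 3.76-fold above DMSO (log2 1.91, SE 0.047, adjusted p = 2.87e-17 by edgeR). GLA spans chrX:101397803-101407925, and the readthrough gene RPL36A-HNRNPH2 that overlaps it held at most 7 counts in any library.

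PSAP encodes prosaposin, the precursor of activators that present lipids to hydrolases. It lay at 511, 515 and 507 CPM in DMSO and at 763, 755 and 767 CPM in the combination, while the SHP1705 libraries lay at 509 to 513 and the MG132 libraries at 515 to 529 CPM. It rose by 0.58 (SE 0.023). HEXA, the alpha chain of hexosaminidase, rose by 0.36, and GLB1, a galactosidase, by 0.15, although its adjusted p was 0.143 without combination replicate 3. NEU1, the lysosomal sialidase, was the only member of the list to fall, by 0.17 on the log2 scale, from 326, 322 and 315 CPM in DMSO to 277, 292 and 288 CPM in the combination. GAA (0.09), GUSB (0.05), ASAH1 (0.07) and PPT1 (-0.08) did not pass, and PPT1 lies at the threshold (adjusted p = 0.052 by edgeR, and 0.0325 to 0.0428 when any of 8 single libraries was left out). CAP1 overlaps PPT1, at 453 to 478 CPM in DMSO and 553 to 557 CPM in the combination. How far it enters the PPT1 values cannot be told from these counts.

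Among 7 membrane and cholesterol transport genes, 4 rose and 3 did not pass. NPC1, which moves cholesterol out of lysosomes, lay at 124, 126 and 135 CPM in DMSO and at 225, 226 and 237 CPM in the combination (log2 0.84, SE 0.037, adjusted p = 2e-13 by edgeR), with no overlap. RMC1 overlaps NPC1, at 29.3 to 30.7 CPM in DMSO and 36.9 to 43.7 in the combination, so how much of the change belongs to which of them cannot be told from these counts. LAMP1, the main membrane glycoprotein, rose by 0.35, LAMP2 by 0.29 and SCARB2, the receptor that carries glucocerebrosidase, by 0.21. CD63 (0.05), NPC2 (0.06) and the channel MCOLN1 (0.02), whose promoter holds a full CLEAR element, did not pass.

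**Figure D1:**
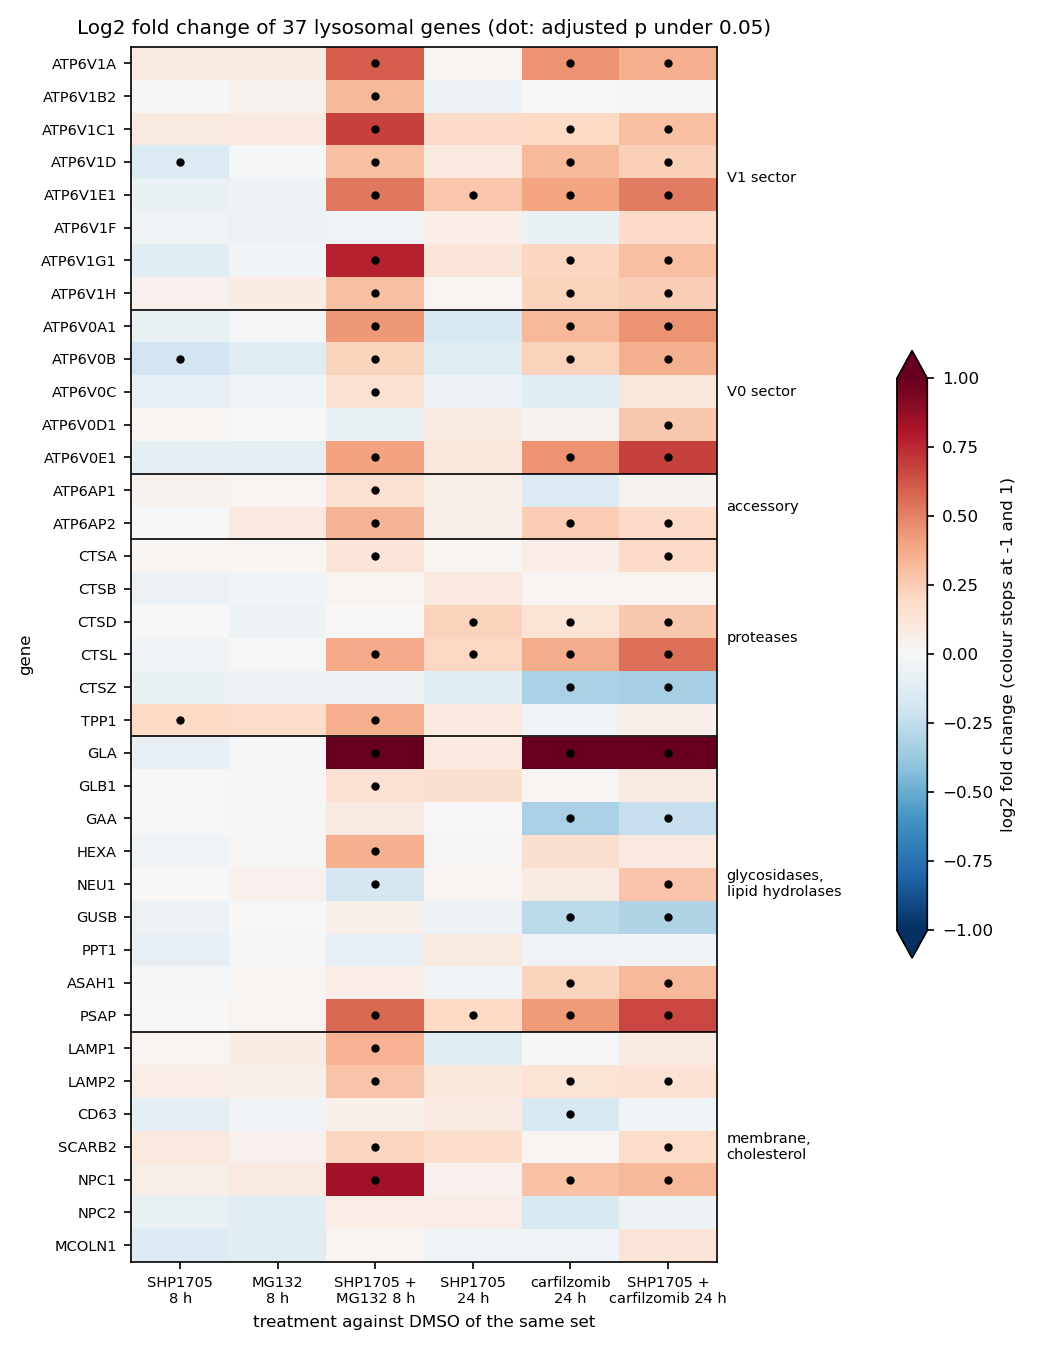
Log2 fold change against DMSO (colour, from -1 to 1, with higher in red) of the 37 genes in 6 comparisons of the MG132 set at 8 h and the carfilzomib set at 24 h, where a dot marks an adjusted p under 0.05. The combination column of the MG132 set holds 25 dots and the MG132 column none.

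**Figure D2:**
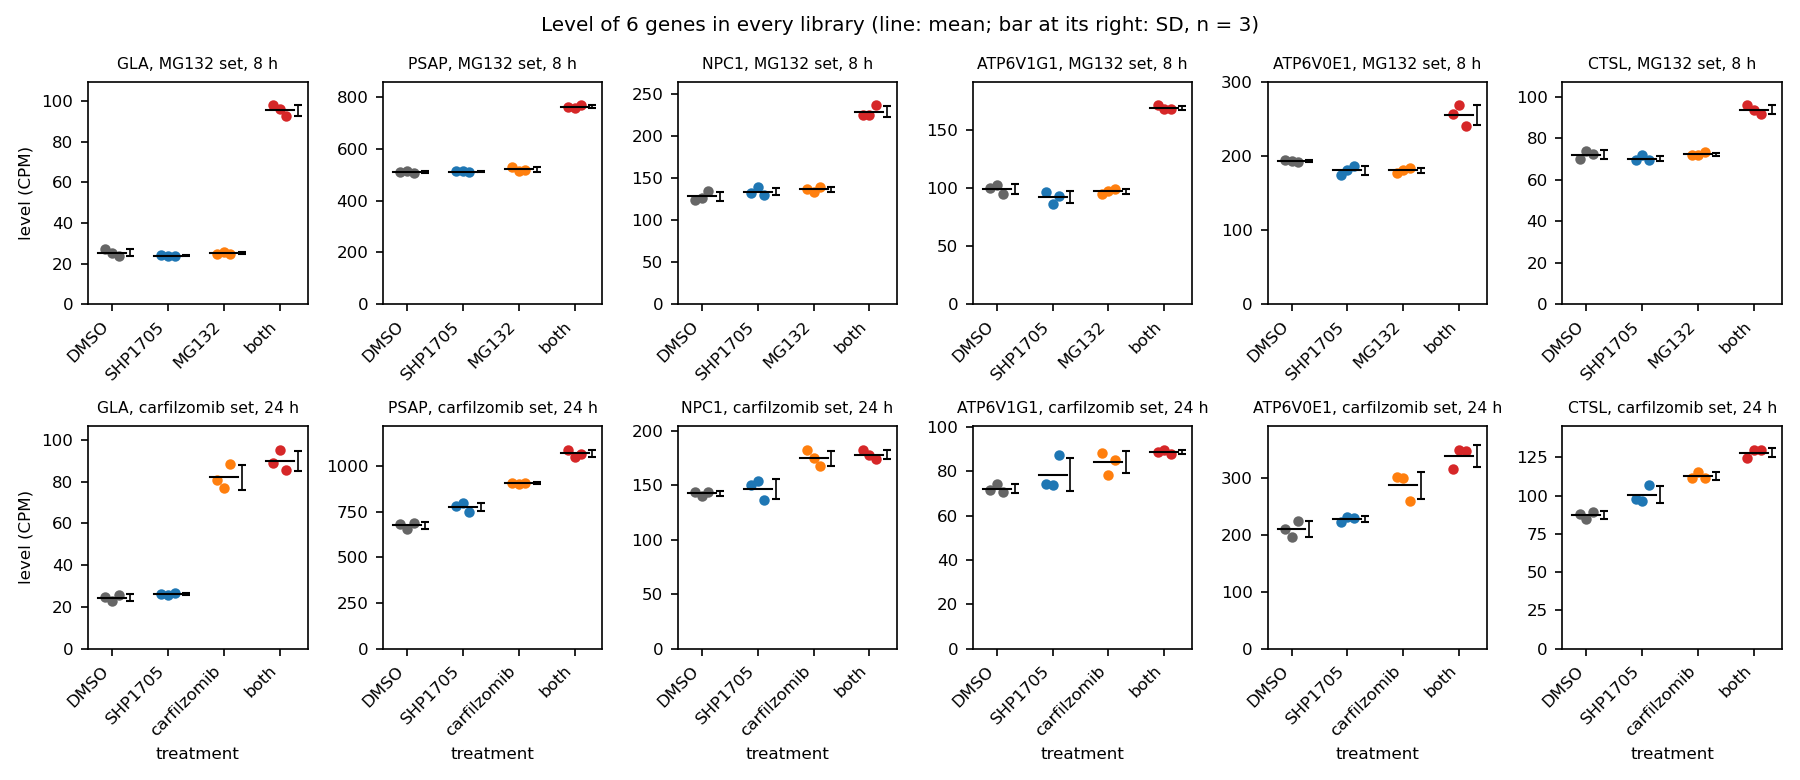
Level in CPM of 6 genes in each of 12 libraries, for the MG132 set at 8 h (top) and the carfilzomib set at 24 h (bottom), with the group mean as a line and the SD (n = 3) as a bar. At 8 h the combination stands alone, and at 24 h GLA lies at 76.9 to 95.4 CPM in the 6 libraries with carfilzomib.

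Neither drug alone gave this pattern at 8 h. With MG132 alone, 0 of 37 genes passed, 0% of 16591 genes did, and 8 of the 37 had an unadjusted p under 0.05 (1574 of all genes). DESeq2 called 56 genes, 1 of them in the list. That gene was TPP1, at 68.6, 65.6 and 67.1 CPM against 59.6, 57.7 and 59.5 in DMSO, which do not overlap, with an adjusted p of 0.124 by edgeR. It was 0.0388 without MG132 replicate 2. SHP1705 alone gave 3 calls, against 7.53% of all genes (3.45% higher and 4.08% lower). TPP1 rose by 0.20 (65.7, 69.5 and 68.3 CPM), while ATP6V0B fell by 0.19 (138, 140 and 137 CPM against 159, 160 and 154 in DMSO) and ATP6V1D fell by 0.13. Leaving out the 4 POSTN-positive libraries named above keeps a single library of SHP1705 and of MG132. A count from that fit cannot tell the POSTN signal from the loss of libraries, so none is given. The adjusted p of ATP6V1D was 0.0607 to 0.103 by edgeR without any of 5 single libraries.

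Between the combination and MG132 alone, 27 genes were higher and NEU1 was lower, where 57.2% of all genes were called, 28.2% higher and 28.9% lower. CTSD lost its call without any of 11 single libraries, CD63 without any of 8, GLB1 without any of 3, CTSA without either of 2 and ATP6AP1 without 1 (adjusted p 0.0537 to 0.437 by edgeR). ATP6V0D1, MCOLN1 and PPT1 gained a call without 1 library each (0.036 to 0.0494). An interaction term asks whether the log2 effects of the single drugs add up to that of the pair. It was positive for 23 genes and negative for NEU1, where 48.9% of all genes passed. The largest were GLA (2.003, SE 0.068), ATP6V1G1 (0.90, SE 0.057), NPC1 (0.685), ATP6V1E1 (0.64), ATP6V0E1 (0.60) and PSAP (0.55), all by edgeR. 8 of the 23 exceeded 0.5. ATP6V1H, CTSB and MCOLN1 kept the sign but passed only with most libraries in the fit (adjusted p up to 0.124, 0.13 and 0.0928 without 1 library).

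After 24 h carfilzomib alone was enough to change many of the same kinds of genes. Against DMSO, 17 genes were higher and 4 lower, where 21.5% of 16183 genes were called, 10.1% higher and 11.4% lower. Of the 15 V-ATPase genes, 10 were higher and 0 lower (median log2 0.22). Of the 22 others, 7 were higher and 4 lower (median 0.02). The median of all genes was 0.001. HSPA1A lay at 690 to 735 CPM in the DMSO and SHP1705 libraries of this set and at 1046 to 1290 CPM in those with carfilzomib.

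GLA again changed most, from 24.7, 22.7 and 25.8 CPM in DMSO to 80.8, 76.9 and 88.6 CPM with carfilzomib, with 25.9, 25.7 and 26.5 under SHP1705. All libraries with carfilzomib lay above all libraries without it. The change was 1.75 on the log2 scale (SE 0.070, adjusted p = 3.05e-14 by edgeR). PSAP rose by 0.42 (SE 0.038). Among pump genes, ATP6V1A changed by 0.45, ATP6V0E1 by 0.45, ATP6V1E1 by 0.39, ATP6V0A1 by 0.33 and ATP6V1D by 0.33. ATP6V0E1 lay at 210, 196 and 224 CPM in DMSO and 301, 299 and 260 CPM with carfilzomib. CTSL rose by 0.37 and NPC1 by 0.29.

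Genes for 3 enzymes and for the membrane protein CD63 fell with carfilzomib. CTSZ, a carboxypeptidase, lay at 552, 530 and 551 CPM in DMSO and at 422, 484 and 400 CPM with carfilzomib, and changed by -0.32. GAA, the acid glucosidase that degrades glycogen, lay at 49.4, 52.0 and 52.6 CPM in DMSO and at 40.9, 45.8 and 35.8 CPM with carfilzomib. GUSB, the glucuronidase, changed by -0.27 and CD63 by -0.15. Calls near the threshold did not hold in every subset. LAMP2 lost its call without any of 11 single libraries (adjusted p 0.0544 to 0.183), ATP6V1H without any of 6 (0.0509 to 0.186), CTSD without any of 4 (0.0655 to 0.142), ATP6V1G1 without any of 3 (0.0647 to 0.0776), ATP6V1C1 without DMSO replicate 1 or carfilzomib replicate 3 (0.0866 to 0.101), ASAH1 without DMSO replicate 2 or carfilzomib replicate 1 (0.0544 to 0.075) and CD63 without DMSO replicate 1 (0.0609). HEXA and NEU1 (higher) and NPC2 and ATP6AP1 (lower), in contrast, passed when a single library was left out (adjusted p 0.0249 to 0.0468 by edgeR). The pump gene ATP6AP1 lay at 147, 141 and 147 CPM in DMSO and at 137, 137 and 121 CPM with carfilzomib.

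The combination with carfilzomib at 24 h, read against the same DMSO libraries, had 21 genes higher and 3 lower, where 27.3% of all genes were called, 13% higher and 14.3% lower. Of the pump genes, 11 of 15 were higher (median 0.27), and of the others 10 were higher and 3 lower of 22 (median 0.12). Each comparison with DMSO shares its controls with the other, so their counts are given side by side only. ATP6V0E1 lay at 316, 349 and 348 CPM and changed by 0.68. ATP6V1E1, at 68.8, 72.4 and 70.6 CPM against 47.7, 47.2 and 52.7 in DMSO, changed by 0.52. CTSZ (-0.33), GAA (-0.23) and GUSB (-0.30) fell. LAMP2, ATP6V1H, GAA, SCARB2 and ATP6AP2 lost their calls without 1 library each of 6, 3, 4, 2 and 1 (adjusted p 0.0516 to 0.137), and ATP6V1F and ATP6V0C gained one without carfilzomib replicate 3 (0.00575 and 0.027), ATP6V1F also without carfilzomib replicate 2 (0.0496).

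PSAP is given for each group of the 24 h set. It lay at 679, 654 and 690 CPM in DMSO, 780, 794 and 749 CPM with SHP1705, 908, 899 and 908 CPM with carfilzomib and 1089, 1049 and 1068 CPM in the combination. The groups do not overlap. SHP1705 raised it by 0.20 (adjusted p = 0.00231 by edgeR), and in the combination it rose by 0.24 above carfilzomib alone (adjusted p = 0.00028 by edgeR).

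SHP1705 alone at 24 h raised 4 genes (4.46% of all genes called, 1.95% higher and 2.51% lower), ATP6V1E1 by 0.27, CTSD by 0.23, CTSL by 0.20 and PSAP by 0.20, and lowered 0. CTSD lay at 2081, 1995 and 2039 CPM in DMSO and 2395, 2399 and 2370 CPM with SHP1705, with no overlap. ATP6V1E1 lost its call without any of 4 single libraries (adjusted p 0.0555 to 0.0903) and CTSL without any of 3 (0.0838 to 0.157). SHP1705 added to carfilzomib gave 8 genes higher and 0 lower (9.02% of all genes called, 4.36% higher and 4.67% lower), namely ATP6V1F, ATP6V0C, ATP6V0D1, ATP6V0E1, ATP6AP1, CTSL, NEU1 and PSAP, at log2 changes of 0.17 to 0.26. NEU1 lay at 538, 519 and 562 CPM in the combination and 473, 492 and 437 CPM with carfilzomib. The count was 3 without combination replicate 2 or 3 and 5 when only these groups were fitted. ATP6V1F lost its call without any of 5 single libraries, ATP6AP1 without any of 4, CTSL without any of 3, ATP6V0E1 without either of 2, and ATP6V0C and NEU1 without 1 each (adjusted p 0.0513 to 0.176 by edgeR). CTSA, CTSD and SCARB2 gained a call without 1 library each (0.00822 to 0.0446). The interaction at 24 h was called for 0 of 37 genes by edgeR, against 0.482% of all genes. Of the 37, 7 had an unadjusted p under 0.05 (2202 of all 16183 genes) and DESeq2 called 1. Without carfilzomib replicate 2 it was called for 3, ATP6V0B, ATP6V0C and LAMP1 (adjusted p 0.0326 to 0.0483).

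The 2 combinations rest on different control libraries, so their calls can be crossed. 17 genes (45.9%) were higher in both, 10 of them pump genes, where 7.51% of the 15613 genes tested in both sets were higher in both. These were the V1 genes ATP6V1A, ATP6V1C1, ATP6V1D, ATP6V1E1, ATP6V1G1 and ATP6V1H, the V0 genes ATP6V0A1, ATP6V0B and ATP6V0E1, and ATP6AP2, with CTSA, CTSL, GLA, PSAP, LAMP2, SCARB2 and NPC1. These 17 are 70.8% of the 24 higher in the MG132 set and 81% of the 21 higher in the carfilzomib set. 7 were higher with MG132 and not called with carfilzomib. NEU1 fell with the first and rose with the second.

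**Figure D3:**
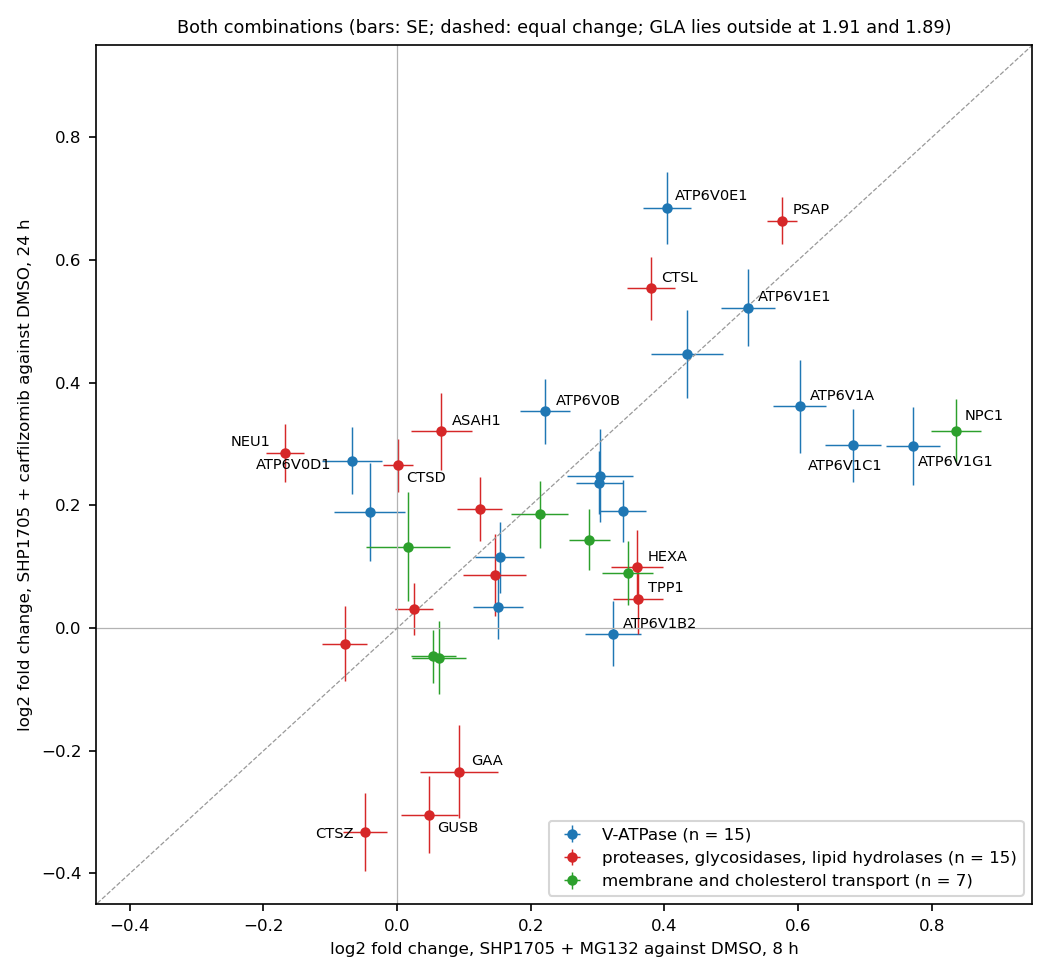
Log2 fold change of the combination against DMSO with MG132 at 8 h (horizontal) and with carfilzomib at 24 h (vertical) for 36 of the 37 genes, with SE bars and a dashed line of equal change. GLA lies outside at 1.91 and 1.89. NPC1, ATP6V1C1 and ATP6V1G1 lie below the line, and NEU1, CTSD and ATP6V0D1 above it.

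The difference between the 2 combination effects, tested in a comparison added after the data were seen, passed for 19 of 37 genes (6 higher and 13 lower in the carfilzomib set), where 39.4% of 17793 genes passed. It passed for 8 with all 36 libraries in the fit, which adds the carfilzomib set at 8 h. Libraries of the same label can differ widely in that set, and its part in the lower count was not tested. Inhibitor, dose and time differ together between these sets and cannot be told apart. The effect was smaller at 24 h for NPC1 (difference -0.52, SE 0.061), ATP6V1G1 (-0.48, SE 0.076), ATP6V1C1 (-0.39) and ATP6V1B2 (-0.34). It was larger for NEU1 (0.45, SE 0.056), ATP6V0D1 (0.33), ATP6V0E1 (0.27) and CTSD (0.26). Of the pump genes 5 were lower and 2 higher, and of the V1 sector 4 were lower and 0 higher. GLA did not pass, with changes of 1.91 and 1.89 in the 2 sets.

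The carfilzomib set at 8 h cannot be read by its labels. HSPA1A lay at 14559, 23605 and 23242 CPM in the libraries labelled DMSO, at 19856, 705 and 693 in those labelled SHP1705, at 792, 726 and 896 in those labelled carfilzomib and at 892, 12020 and 15052 in those labelled with both drugs. PER3, a clock gene that fell with SHP1705 in the other sets, lay at 8.19, 2.06 and 1.55, then 2.25, 9.62 and 7.91, then 6.78, 1.26 and 1.69, then 1.92, 7.69 and 8.20 CPM in the same order. Libraries of one label differ widely in HSPA1A for SHP1705 and for both drugs, and in PER3 for all 4 labels. The DMSO label holds the high HSPA1A values and the carfilzomib label the low ones. No library was regrouped. GLA lay at 159, 239 and 223 CPM in the libraries labelled DMSO, 214, 48.2 and 53.8 in those labelled SHP1705, 52.0, 50.2 and 49.3 in those labelled carfilzomib and 51.5, 165 and 164 CPM in those labelled with both. The libraries high in GLA are those high in HSPA1A.

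PSAP lay at 865, 1127 and 1029 CPM in the libraries labelled DMSO, 1007, 622 and 640 in those labelled SHP1705, 694, 647 and 598 in those labelled carfilzomib and 629, 862 and 895 CPM in those labelled with both. ATP6V1A lay at 62.8, 58.7 and 64.6, then 70.3, 41.5 and 36.2, then 36.3, 32.4 and 37.5, then 32, 60 and 59.8 CPM in the same order. Both were high in the libraries high in GLA. GAA, in contrast, lay at 26.8 to 32.6 CPM over all 12. As labelled, 14 genes were lower in the carfilzomib group than in the DMSO group and 0 higher (23% of 15577 genes called, 11.7% higher and 11.3% lower), 9 of them pump genes. This count was 0 with the replicate number as a block, and 0 without DMSO replicate 2 or 3 or any single carfilzomib library. It was 20 without SHP1705 replicate 1, 8 without replicate 3 of both drugs and 22 when only these groups were fitted. Without replicate 1 of all 4 labels it was 27. The shares of all genes called in these alternative fits are not given. The other 4 labelled comparisons called 0 of 37 genes and 0% of all genes by edgeR. Unadjusted p-values under 0.05 by edgeR were counted for SHP1705, both drugs against DMSO, both against carfilzomib and the interaction, in this order. They were 5, 1, 2 and 14 of the 37 genes, and 2244, 1454, 898 and 3951 of all 15577. DESeq2 called 0, 0, 0 and 1 of the 37. The combination effect as labelled here differed from that at 24 h for 23 genes, 21 higher and 2 lower at 24 h (20.4% of all genes, 9.72% higher and 10.7% lower). It differed from that with MG132 for 23, all lower here (46% of all genes, 23.3% higher and 22.7% lower), and both rest on the doubtful labels.

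**Figure D4:**
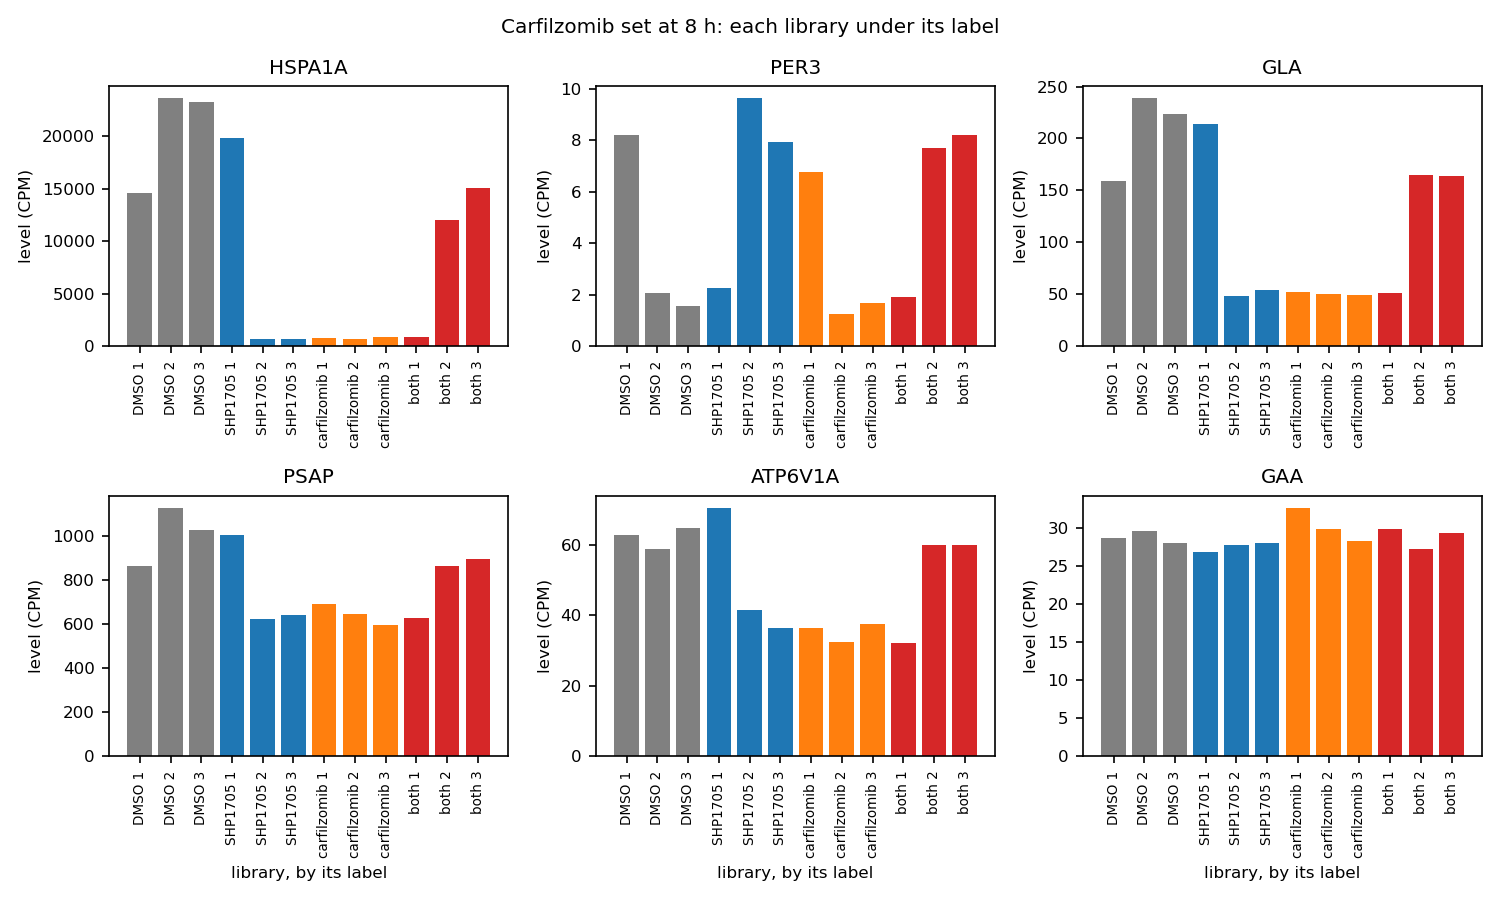
Level in CPM of HSPA1A, PER3 and 4 lysosomal genes in the 12 libraries of the carfilzomib set at 8 h, each bar 1 library under its label, with colours for the 4 labels. GLA and PSAP are high in the libraries high in HSPA1A, while GAA stays between 26.8 and 32.6 CPM.

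Calls in the other pathway lists are set beside the shares of all genes, which were 29.2% higher and 29.7% lower in the MG132 combination, 10.1% and 11.4% with carfilzomib at 24 h and 13% and 14.3% in its combination. In the MG132 combination, other lysosomal hydrolases were higher in 15 and lower in 10 of 34 tested, and other lysosomal membrane proteins in 6 and 7 of 22. Higher hydrolases included PLBD2 (0.50), LGMN (0.60) and MAN2B1 (0.52), and lower ones GM2A (-0.71), ACP2 (-0.68) and CTSC (-0.37). SCPEP1, a carboxypeptidase, rose by 1.17 and 1.41 with carfilzomib and its combination at 24 h, and lay at 27.5, 24.1 and 24.4 CPM in DMSO against 68.0, 68.0 and 66.4 CPM in the last. At 24 h, 6 hydrolases were higher and 7 lower with carfilzomib, and 7 and 7 in its combination. Membrane proteins were higher in 5 and lower in 4, and in 8 and 4. LAPTM4B and LAPTM4A rose and TTYH3, TPCN1 and TMEM63A fell in both.

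Against the same shares, V-ATPase assembly factors were higher in 5 and lower in 5 of 10 in the MG132 combination, NCOA7 (0.58) and OXR1 (0.33) higher and MEAK7 (-0.70) and ROGDI (-0.41) lower. With carfilzomib 3 rose and 0 fell. In its combination 0 of 10 passed by edgeR (1 at an unadjusted p under 0.05, against 5998 of all 16183 genes). Other V-ATPase isoforms were called in 1 higher and 1 lower of 8, 2 and 2 of 9, and 3 and 1 of 9 in these 3 comparisons, with ATP6V0A4 higher in each (0.66, 0.54 and 0.67). Of 7 genes of the MiT/TFE factors and their FLCN regulators, 5 were higher and 2 lower in the MG132 combination. TFEB, the activator of the CLEAR network, lay at 8.68, 11.1 and 10.4 CPM in DMSO and at 3.79, 4.46 and 4.42 CPM in the combination, without overlap (log2 -1.25). FLCN and FNIP1, its negative regulators, rose by 0.51 and 0.52, and MITF fell by 0.38. At 24 h TFEB did not pass with carfilzomib or its combination, at 16.5 to 17.8 and 15.5 to 17.6 CPM against 15.9 to 18.5 in DMSO. With SHP1705 alone at 24 h TFEB lay at 13.1, 14.1 and 12.2 CPM, below all DMSO libraries, and fell by 0.40 (adjusted p = 0.0141 by edgeR).

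In the MG132 combination 29.2% of all genes were higher and 29.7% lower. Ragulator and Rag genes, which tether the kinase mTORC1 to lysosomes, were higher in 2 and lower in 4 of 9 in the MG132 combination and in 1 and 2 of 9 in that with carfilzomib. With carfilzomib alone 0 of 9 passed by edgeR (3 at an unadjusted p under 0.05, against 5278 of all 16183 genes). LAMTOR3 changed by 0.57 and RRAGA by -0.51 with MG132 and SHP1705. Genes that route hydrolases to lysosomes (those of the mannose 6-phosphate route, and the separate receptor SORT1) were higher in 3 and lower in 1 of 6, 0 and 2, and 0 and 1. SORT1 fell in all 3 comparisons (-0.50, -0.25 and -0.18). It was the only lower call in the MG132 combination and in that with carfilzomib. Lysosomal damage response genes were higher in 5 and lower in 3 of 9, 4 and 1, and 4 and 1. LGALS8, a galectin that marks damaged lysosomes, lay at 43.5, 43.5 and 41.4 CPM in DMSO and 115, 115 and 116 CPM in the MG132 combination, and rose by 1.43 there, by 0.80 with carfilzomib at 24 h and by 0.75 in its combination.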

How the data were processed

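The deposited tables hold raw read counts per gene of 36 libraries. The authors used Trimmomatic, FastQC, HISAT2 and featureCounts with hg38, per the submitters' processing notes, and no source used here gives their versions, the annotation or the strand setting. Without a stated strand setting, reads of overlapping genes cannot be told apart. Groups follow the labels, and 0 columns of values were left out.

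Each set of 12 libraries was fitted as a whole with edgeR 4.0.16 (R 4.3.3, limma 3.58.1): filterByExpr, TMM scaling, quasi-likelihood F-tests and Benjamini-Hochberg adjustment over all genes tested, with calls at an adjusted p under 0.05. Fold changes use a prior count of 0.125. The scripts were tested on simulated data. DESeq2 1.42.0, RLE scaling, no filter, a replicate block, fits of only the groups compared and single libraries left out were alternatives. Differences between the sets at 8 h with MG132 and 24 h were fitted on 24 libraries and added after the data were seen.

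The 37 genes and all lists were chosen with earlier results of these data known. Any of the 37 may be named, and of each other list up to 3 called genes per direction and comparison, lowest p first. Promoters and gene positions are RefSeq's for GRCh38.p14, and levels per kilobase use the exons of GENCODE 29. Promoters were not found for ATP6V1A, ATP6V1B2, ATP6V1C1, ATP6V1H, ATP6V0E1, CTSB, HEXA, ASAH1, PSAP and LAMP2.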

Additional observations from a re-analysis of the deposited data

Results flagged for a closer look

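The effect of a combination against its own DMSO libraries differed between sets by an interaction test in edgeR. Between MG132 at 8 h and carfilzomib at 24 h it differed for 19 of the 37 genes. For SHP1705 alone it differed between the same sets for 5 genes (ATP6V1D, ATP6V1E1, CTSD, CTSL and PSAP, all higher at 24 h), against 1.2% of all genes. This count was 0 with all 36 libraries in the fit, which adds the carfilzomib set at 8 h, and 0 to 5 with a single library left out. Libraries of the same label can differ widely in that set, and its part in the count was not tested. Without the 4 POSTN-positive libraries a single SHP1705 library is left in the MG132 set, so no count is given. ATP6V1D lost its call without any of 10 single libraries, CTSL without any of 8, CTSD without any of 7, ATP6V1E1 without any of 4 and PSAP without 1. The differences that involve the carfilzomib set at 8 h were called for 23 genes against the 24 h set and for 23 against the MG132 set, and rest on labels that the check genes go against.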

How the results depend on the processing

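Counts below are of the 37 genes called, without the share of all genes called in the same fit. They show how a count moves with the processing and are no result about these genes. In the MG132 set the count for MG132 alone was 1 with no filter and 1 with DESeq2 (0 to 1 with a library left out). No count is given without the 4 POSTN-positive libraries, since that fit keeps a single library of SHP1705 and of MG132. At 24 h the count for carfilzomib with SHP1705 against carfilzomib was 5 in a fit of only these groups and 3 to 9 with a library left out, that for SHP1705 was 2 to 6 with a library left out, and the interaction gave 1 with no filter, 1 with DESeq2 and 0 to 3 with a library left out. Between sets, the difference of the combinations was called for 8 genes with all 36 libraries, which include the carfilzomib set at 8 h with its doubtful labels. That of SHP1705 alone was called for 0 with all 36 libraries and for 0 to 5 with a library left out.

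In the carfilzomib set at 8 h, as labelled, no filter gave 1 for SHP1705, 1 for both drugs against DMSO, 3 for both against carfilzomib and 8 for the interaction, for which DESeq2 gave 1. Leaving out replicate 1 of all 4 labels gave 27 for SHP1705, 27 for carfilzomib, 10 for both against DMSO, 23 for both against carfilzomib and 29 for the interaction. The count for carfilzomib was 22 with only the groups compared. With a library left out the counts were 0 to 16 for SHP1705, 0 to 20 for carfilzomib and 0 to 19 for the interaction, and 15 to 23 for the difference between 24 h and 8 h.

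With the replicate number as a block the counts in the MG132 set were 3, 0, 25, 28 and 24, and at 24 h 4, 21, 24, 9 and 0, for SHP1705, the inhibitor, the combination, the combination against the inhibitor and the interaction. For carfilzomib as labelled at 8 h the replicate block gave 0. Deviations of same-numbered libraries correlated at -0.0926 to 0.151 (MG132), -0.657 to 0.229 (carfilzomib, 8 h) and -0.0473 to 0.0466 (24 h). In the MG132 set and at 24 h, same-numbered libraries thus showed no strong shared signal. Whether they were made or handled together cannot be told from this. In the carfilzomib set at 8 h replicate 1 stood apart from replicates 2 and 3 of its label in PER3 for all 4 labels (higher for DMSO and carfilzomib, lower for the others), and the correlations do not pair the libraries there either. In the MG132 set and at 24 h, no gene of the 37 called in the main or the alternative fit reversed its direction between them. Genes called in neither fit were not counted for this.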
